A study of Oryza sativa with 4 samples.

Results

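DC90, a rice chromosome substitution line described as chilling tolerant, was compared with 9311 (also called YD6), its chilling-sensitive recurrent parent, before any chilling was applied (0 h). The 0 h group of each line consisted of whole seedlings at the 3-leaf stage, and the corresponding groups after 36 h of chilling of DC90 and of 9311 are used below only to ask whether a difference seen at 0 h was seen again. RNA of 3 replicates was pooled in equal amounts into 1 library for each line at each time, so no comparison has a replicate check and no test between lines was run. The identity of the donor segments in DC90 is not given in the sources used here. All identifiers beginning with BGIOSGA that had an FPKM (the number of fragments divided by the gene's length and by the size of the library) of at least 1 in either line at 0 h were included. These were 22919 of 40745 BGIOSGA identifiers and of 88509 identifiers of all kinds. The library totals were 11709642 reads for DC90 and 11800685 for 9311 at 0 h, and 10580163 for DC90 and 10901043 for 9311 at 36 h, as recovered from the steps between the deposited values.

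A chromosome substitution line is bred by crossing a donor into a recurrent parent and backcrossing, until a few donor segments remain in an otherwise parental genome. Genes in the donor segments carry donor alleles, while the rest of the genome is nominally that of the parent. Rice is a crop of warm climates whose seedlings are easily damaged by chilling, and indica cultivars, to which 9311 belongs, are in general less tolerant than japonica ones. Differences present before chilling are the starting state from which the responses of both lines begin. The files do not pair the identifiers with gene names, and 0 of them were found in the RefSeq gene table of the japonica rice assembly ASM3414082v1, so functions are not described, no tissue markers could be checked and few identifiers are named.

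Most identifiers stood at nearly the same level in both lines before chilling. The ratio used throughout is log2((FPKM + 1)/(FPKM + 1)) of DC90 over 9311, which understates differences of low values. Its median was 0.01, and 88.2% of the identifiers, 20218 in number, lay within 1.5-fold. The 5th and 95th percentiles were -0.68 and 0.59, and the 1st and 99th were -1.20 and 1.18. Of the 22919 identifiers, 364 were at least 2-fold higher and 429 at least 2-fold lower in DC90, which is 3.46% in all, 1.59% higher and 1.87% lower. A difference of at least 4-fold was shown by 136, or 0.593%. An FPKM of at least 1 was reached in both lines by 21482 identifiers, in DC90 alone by 613 and in 9311 alone by 824. Those that qualified through 1 line alone were below the limit in the other line by construction, and they supply 342 of the 793 differing identifiers. At the limit itself, the lowest identifier included had an FPKM of 1.00008 and the highest left out had 0.999; 281 included identifiers lay below 1.1, and 18 of them differed at least 2-fold.

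**Figure D1:**
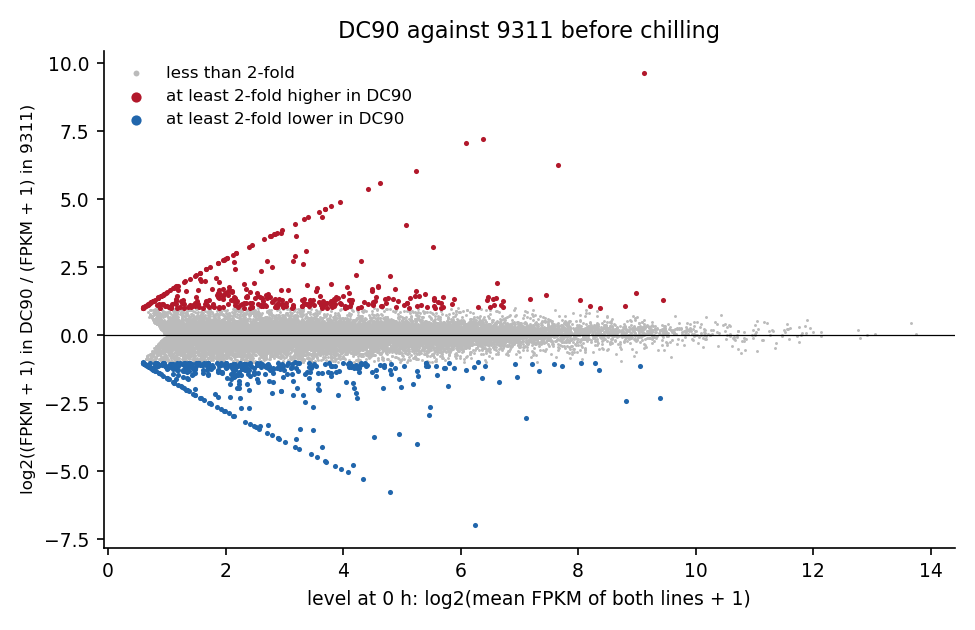
Each point is 1 of the 22919 BGIOSGA identifiers, with its level at 0 h on the x axis (log2 of the mean FPKM of both lines + 1) and the log2 ratio of DC90 over 9311 on the y axis. Red points (364) are at least 2-fold higher and blue points (429) at least 2-fold lower in DC90; the straight edges above and below are identifiers listed at 0 in one line.

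The most abundant transcripts differed little. The 100 highest identifiers carried 22.4% of the summed FPKM in DC90 and 22.1% in 9311, and 91 identifiers stood in both lists. Of the 109 identifiers in either list, 104 lay within 1.5-fold, 1 was at least 2-fold higher in DC90 and 1 at least 2-fold lower. BGIOSGA018498, with the highest mean of all, stood at 13946 FPKM in DC90 and 13635 in 9311. Its log2 ratio of 0.03 changed sign with the scaling, and was -0.03 when the libraries were set to equal FPKM sums. BGIOSGA002954, the next highest, stood at 14986 FPKM in DC90 and 10982 in 9311, a log2 ratio of 0.45. The ratio was 0.39 with equal FPKM sums, and 0.31 with the trend by coding length described below removed. At 36 h BGIOSGA002954 was again higher in DC90, at 10133 FPKM against 8168 in 9311. The 1 abundant identifier that was lower, BGIOSGA026928, is named after its values were seen. It stood at 224 FPKM in DC90 and 1119 in 9311 at 0 h, a log2 ratio of -2.32, and at 259 FPKM in DC90 and 177 in 9311 at 36 h, a log2 ratio of 0.54, so its sign was not the same at both times.

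At the other end were identifiers with a high FPKM in one line and one at or near 0 in the other. For these and the identifiers listed at 0 below, whether such values meant absent transcript or unassigned reads was not tested. BGIOSGA040274 stood at 1114 FPKM in DC90, from 5438 reads, and at 0.406 in 9311, from 2 reads. The ratio was 2740.1 with a 95% counting interval of 758 to 22632, and at 36 h the identifier stood at 993 FPKM in DC90 and 1.54 in 9311. This identifier is the 1 of the most abundant group that was higher in DC90. BGIOSGA013100 stood at 165 FPKM in DC90 and 0.118 in 9311, the value in 9311 resting on 1 read. At 36 h its values were 175 FPKM in DC90 and 0.127 in 9311, the value in 9311 again resting on 1 read. Its level in DC90 was thus nearly that of 0 h, while 1 read at each time cannot show whether the level in 9311 changed. BGIOSGA037365 was the lowest in DC90 relative to 9311, at 0.181 FPKM from 1 read in DC90 and 149 FPKM from 827 reads in 9311. Its values at 36 h were 0.401 FPKM in DC90 and 189 in 9311. BGIOSGA038872 was listed at 0 in DC90 at both times, and stood at 53.4 FPKM, from 580 reads, at 0 h and at 4.88 FPKM, from 49 reads, at 36 h in 9311. With DC90 set at 3 reads, it was at least 191.8-fold lower in DC90 at 0 h and at least 15.85-fold lower at 36 h. These bounds leave out the counting error of the 9311 reads. Exact intervals, which start from 0 reads in DC90 and not from 3, gave a lower 95% limit of 155.5-fold at 0 h and 12.4-fold at 36 h. The intervals cover counting error only, since reads from PCR are not independent molecules.

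Identifiers listed at 0 in one line were about equally frequent in both. In DC90, 89 identifiers were listed at 0 that had an FPKM of at least 1 in 9311, and in 9311, 84 were listed at 0 that had at least 1 in DC90. Requiring an FPKM of at least 10 in the other line left 17 identifiers at 0 in DC90 and 18 at 0 in 9311. The 36 h libraries, which took no part in choosing them, showed most of them at 0 again in the same line. Of the 17, 12 were listed at 0 in DC90 at 36 h as well, 11 of them with an FPKM of at least 1 in 9311 and 1 below it, and the other 5 reached at most 0.199 FPKM there. Of the 18, 14 were listed at 0 in 9311 at 36 h as well, all 14 with an FPKM of at least 1 in DC90, while the highest of the other 4 reached 30.6 FPKM in 9311. Between 1 FPKM and 10 FPKM the zeros rest on few reads: the median in the line with signal was 9 reads over the 72 identifiers listed at 0 in DC90 and 11 reads over the 66 listed at 0 in 9311.

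Whether a line difference at 0 h was seen again at 36 h went with its size. Of the 657 identifiers that differed 2-fold to 4-fold at 0 h, 121 or 18.4% differed at least 2-fold in the same direction at 36 h. Among those with a 4-fold to 8-fold difference it was 45 of 70, or 64.3%. For 8-fold to 16-fold it was 32 of 34, and for 16-fold or more 31 of 32. Over all 22919 identifiers, 1.53% were at least 2-fold higher and 2.8% at least 2-fold lower in DC90 at 36 h, together 4.33%, so the share of the smallest class stood above that of identifiers at large. The median of reads in the higher library was, however, 45 for the higher and 49 for the lower identifiers of that class. It was 181 over all 22919, and shares at like depth were not compared. The classes at 8-fold to 16-fold and at 16-fold or more hold few identifiers and stand in no clear order: among identifiers higher in DC90 it was 15 of 15 and 16 of 17, and among those lower 17 of 19 and 15 of 15. With both joined, the share rose with size in either direction. Among identifiers higher in DC90, 48 of 303 in the smallest class and 31 of 32 from 8-fold upward were higher again; among those lower, 73 of 354 and 32 of 34 were lower again. The 2 times share no library, but the larger classes were also further from the 2-fold limit, and how far sampling of the pools set the order was not tested. The smallest and largest classes were composed differently: 421 of the 657 had an FPKM of at least 1 in both lines, whereas 56 of the 66 identifiers at 8-fold or more had 3 reads or fewer in the lower line, 44 of them none.

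**Figure D2:**
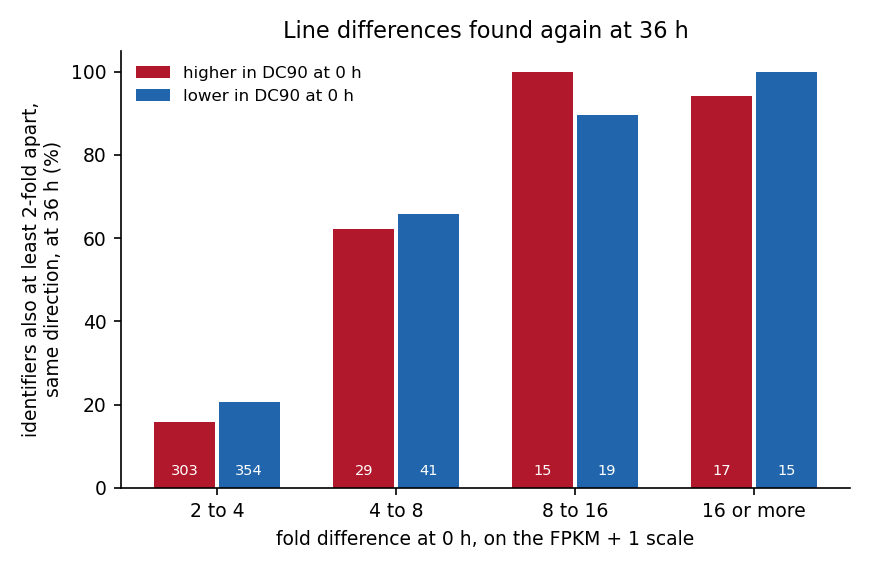
Bars give the percentage of identifiers at least 2-fold apart at 0 h that were also at least 2-fold apart in the same direction at 36 h, by size of the difference at 0 h, for identifiers higher (red) and lower (blue) in DC90. White digits give the number of identifiers; the bars stand at 15.8% and 20.6% for 2-fold to 4-fold differences, and between 89.5% and 100% from 8-fold upward.

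A minority of the 2-fold to 4-fold differences was seen again in each depth class. With fewer than 20 reads in the higher library, 36 of 198 identifiers with a 2-fold to 4-fold difference differed again at 36 h, or 18.2%. From 20 to 100 reads it was 18 of 110 among those higher in DC90 and 26 of 144 among those lower. From 100 to 1000 reads the directions differed more, at 10 of 90 higher and 25 of 90 lower. With 1000 reads or more it was 6 of only 25, or 24.0%. In identifiers higher in DC90 by 2-fold to 4-fold, the median FPKM at 0 h was 7.66 in DC90 and 2.59 in 9311, and at 36 h it was 4.43 in DC90 and 3.53 in 9311. In those lower in DC90 by 2-fold to 4-fold, the medians at 0 h were 1.59 in DC90 and 5.37 in 9311, and at 36 h 1.67 in DC90 and 2.93 in 9311. In both sets the gap between the lines' medians was smaller at 36 h. These sets were chosen by their 0 h values, and the chilling responses of both lines share the 0 h libraries with this choice, so the medians are given side by side only. In the identifiers 16-fold or more higher in DC90, by contrast, the median at 36 h was 36.7 FPKM in DC90 and 0.137 in 9311, and in those 16-fold or more lower it was 0 in DC90 and 16.8 in 9311.

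**Figure D3:**
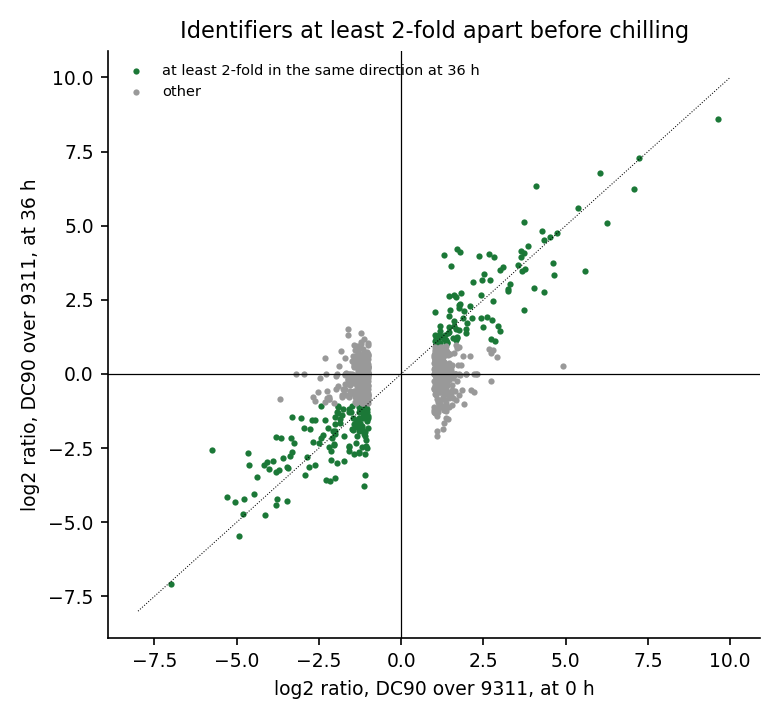
Each point is 1 of the 793 identifiers at least 2-fold apart at 0 h, with its log2 ratio of DC90 over 9311 at 0 h on the x axis and at 36 h on the y axis; green points (229) are at least 2-fold apart in the same direction at 36 h, and the dotted line marks equal ratios. Of the 303 identifiers 2-fold to 4-fold higher in DC90, 170 kept their sign at 36 h, with a median log2 ratio of 0.07. Of the 354 that were 2-fold to 4-fold lower, 230 kept their sign, with a median of -0.30. The medians at 36 h for 8-fold to 16-fold differences were 3.54 in those higher and -2.76 in those lower. For 16-fold or more they were 4.77 and -4.04.

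The differing identifiers were not spread evenly over the identifier numbers. Chromosome positions were not used here, and the numbering is described only as an order. In 79 bins of 500 consecutive numbers with at least 20 members each, the share at least 2-fold apart at 0 h had a median of 2.81% and ran from 0.904% to 21.6%. The fullest bin, numbers 36001 to 36500, held 53 such identifiers of 245, of which 23 were higher and 30 lower in DC90. Numbers 37001 to 37500 followed with 47 of 261, and numbers 10001 to 10500 with 40 of 276, or 14.5%. Numbers 40001 to 40500 held 4 of only 31. Numbers 12501 to 13000 held 30 of 275, or 10.9%, and numbers 13001 to 13500 held 29 of 292, or 9.93%. In no other of the 79 bins did the share exceed 8.99%. These shares depend on where the bins lie: the highest was 12.7% with bins of 1000 numbers, and bins moved by 250 numbers divided the fullest bin between bins at 10.8% and 12.6%. BGIOSGA038872 lies in a bin left out for having fewer than 20 members, so its bin was not ranked. With bins of 1000 numbers, 38001 to 39000 held 12 of 108, or 11.1%. The 6 fullest of the 79 bins include the identifiers BGIOSGA013100, BGIOSGA037365 and BGIOSGA040274.

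**Figure D4:**
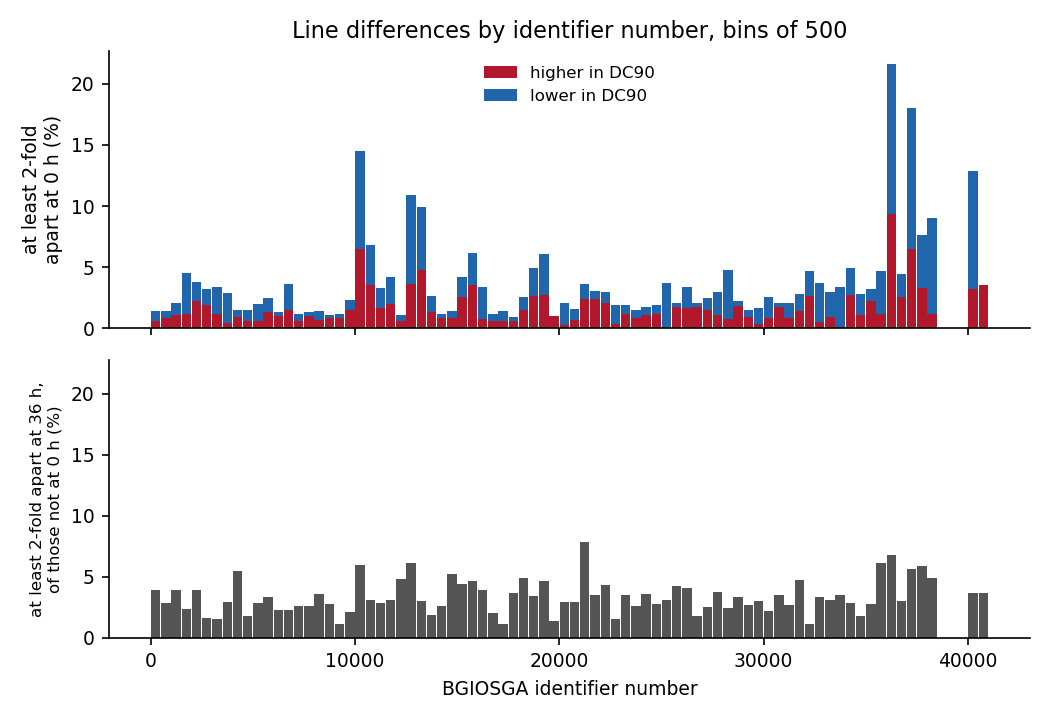
The upper panel gives, for each bin of 500 BGIOSGA numbers (x axis), the percentage of identifiers at least 2-fold higher (red) or lower (blue) in DC90 at 0 h; the lower panel gives, among identifiers not 2-fold apart at 0 h, the percentage at least 2-fold apart at 36 h. The upper panel peaks at 21.6% in numbers 36001 to 36500, while the lower panel, on the same scale, reaches at most 7.88%.

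These 6 bins, picked for their 0 h values, held 1380 identifiers and 203 of the 793 differing ones. They held 41 of the 66 identifiers at 8-fold or more. Both directions were present in them, with 83 identifiers higher and 120 lower in DC90, against 281 higher and 309 lower at other numbers. The 36 h values did not enter the shares that ranked the bins. The cut at 6 bins was, however, chosen after the data were seen, so the 36 h shares are a description. Of the 203 differing identifiers in the 6 bins, 125 or 61.6% differed in the same direction at 36 h, compared with 104 of 590 or 17.6% at other numbers. The contrast was also present among differences of 2-fold to 4-fold, at 53 of 124 or 42.7% in the 6 bins and 68 of 533 or 12.8% elsewhere. Among identifiers not 2-fold apart at 0 h, 63 of 1177 or 5.35% in the 6 bins were at least 2-fold apart at 36 h, and 665 of 20949 or 3.17% elsewhere. The median number of reads in the higher library was 172.5 in the 6 bins and 182 elsewhere, and the median coding length was 960 bases in the 6 bins and 1038 bases elsewhere. Over the 79 bins, Pearson's r between the shares apart at 0 h and those at 36 h was 0.90, Spearman's rho was 0.57, and r was 0.58 over the 73 bins left without the 6. The bins share libraries and differ in size, so these coefficients are a description.

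Short coding sequences differed more often than long ones. Of 1463 identifiers with a coding length under 300 bases, 188 or 12.9% were at least 2-fold apart at 0 h; from 300 to 600 bases it was 5.95%, from 600 to 1200 bases 3.03%, from 1200 to 2400 bases 1.33%, and at 2400 bases or more 22 of 2189, or 1.01%. Short identifiers also have fewer reads at the same FPKM. Recovered lengths are the smallest that fit the values, so some identifiers may be longer than their class. Within a range of 100 to 1000 reads in the higher library the order was the same, at 5.63% under 300 bases and 0.964% at 2400 bases or more. The balance of directions differed between short and long identifiers, though not in an unbroken order. Under 300 bases 99 identifiers were higher and 89 lower in DC90, from 300 to 600 bases 142 were higher and 108 lower, from 600 to 1200 bases 92 were higher and 144 lower, from 1200 to 2400 bases 27 were higher and 70 lower, and at 2400 bases or more 4 were higher and 18 lower. With equal FPKM sums the balance turned in the shortest class, to 82 higher and 95 lower, stayed with the higher ones from 300 to 600 bases, at 125 higher and 115 lower, and stayed with the lower ones at 2400 bases or more, at 4 higher and 19 lower.

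The whole distribution of ratios moved with length, not the differing identifiers alone. For identifiers with an FPKM of at least 5 in both lines at 0 h, the median log2 ratio of DC90 over 9311 was 0.14 under 300 bases, 0.12 from 300 to 600, 0.04 from 600 to 1200, -0.02 from 1200 to 2400 and -0.07 at 2400 bases or more. The difference between the shortest and the longest class was 0.21, and it was 0.21 with equal FPKM sums and with median-of-ratios factors too, although equal FPKM sums turned the median from 600 to 1200 bases to -0.01. At 36 h the same identifiers ran the other way, with a median of 0.03 in the shortest and 0.11 in the longest class, a difference of -0.08. The SD of the log2 ratio at 0 h was 0.32 over these 16069 identifiers, and fell with length, at 0.46 in the shortest and 0.20 in the longest class. With the length trend removed, 289 identifiers were higher and 512 lower in DC90 at 0 h, and identifiers seen again at 36 h made up 29.5% in place of 28.9%. The line ratio of these libraries moved with length, and the balance of directions also differed by length. Neither the source of the trend nor its part in the balance was tested.

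**Figure D5:**
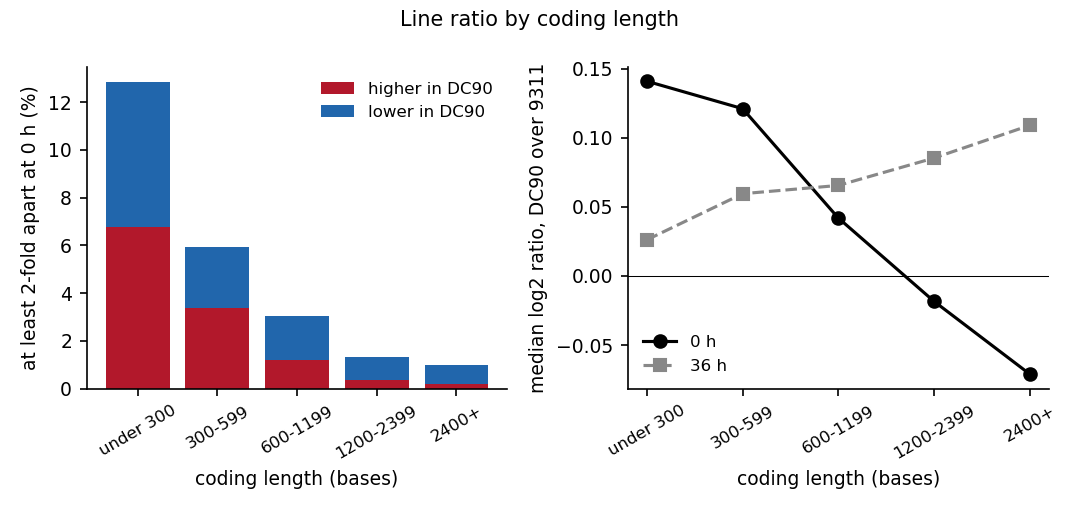
The left panel gives the percentage of identifiers at least 2-fold higher (red) or lower (blue) in DC90 at 0 h by coding length in bases, falling from 12.9% to 1.01% in all. The right panel gives the median log2 ratio of DC90 over 9311 at 0 h (black circles) and 36 h (grey squares) for identifiers with an FPKM of at least 5 in both lines at 0 h; it runs from 0.14 to -0.07 at 0 h and from 0.03 to 0.11 at 36 h.

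Differences were also more frequent at low levels and low depth. The share at least 2-fold apart was 5.42% where the higher line had 1 to 5 FPKM, 3.76% from 5 to 20, 2.03% from 20 to 100, while it was 42 of 2100 identifiers at 100 FPKM or more. By reads in the higher library, it was 10.9% under 20 reads, 4.97% from 20 to 100, 1.91% from 100 to 1000 and 1.30% at 1000 reads or more. In that deepest class, 12 identifiers were higher and 21 lower in DC90, and 13 of the 33 differed in the same direction at 36 h. Identifiers higher in DC90 had a median of 47 reads in the higher library and those lower a median of 53, while identifiers less than 2-fold apart had 189.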

How the data were processed

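The authors deposited 1 table of FPKM values for 4 libraries, per the labels and the table itself. RNA was isolated with TRIZOL, pooled from 3 replicates per group and made into libraries with a NEBNext Ultra RNA kit, per the labels' protocols. The submitters' processing notes name HTSeq 0.6.1. For the aligner, genome build and annotation, the entry is: not given in the sources used here. Each column carries the title of its sample.

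Library totals, lengths and reads were recovered from the steps of the FPKM values as the smallest whole numbers, with lengths up to 30000 and a tolerance of 1e-07, for 34043 of 34043 identifiers above 0. The reads summed to 97.6% to 97.7% of each total. The totals were picked partly by this share and by the share of identifiers recovered, so neither is a separate check of them. Reads and length can both lack a shared factor, most easily where few libraries were above 0. This widens counting intervals and can place identifiers in too short a length class or too low a read class. How many were so placed was not examined. Lengths were multiples of 3 in 99.1% of the identifiers described and are called coding lengths. Reads served for depth, filters and exact Clopper-Pearson intervals (95%) of ratios of 2 libraries. A value of 0 was set at 3 reads for a bound.

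An identifier counted as different when log2((FPKM + 1)/(FPKM + 1)) was 1 or more, or -1 or less. No p-value was computed, since each group has 1 library. The scripts (Python 3.11.15, numpy 2.4.6, pandas 2.3.3, scipy 1.17.1) were tested on simulated data. The members, bins and size classes were chosen with earlier results of these data known. Named identifiers were the 2 highest and 2 lowest ratios among those reaching 10 FPKM in one line, and the 2 highest mean FPKM. The 6 fullest bins, the split by coding length and the removal of the length trend (medians of 20 length groups) were chosen after the data were seen. Alternatives tried were adding 0.1 in place of 1 with all values kept, a minimum of 5 FPKM, equal FPKM sums, median-of-ratios factors, a 4-fold rule, at least 20 reads, and bins of 1000 numbers or bins moved by 250.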

Additional observations from a re-analysis of the deposited data

Results flagged for a closer look

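Of the 364 identifiers at least 2-fold higher in DC90 at 0 h, 29 or 7.97% were at least 2-fold lower at 36 h, where 2.8% of all 22919 were lower. Of the 429 at least 2-fold lower at 0 h, 7 or 1.63% were at least 2-fold higher at 36 h, near the 1.53% of all that were higher. These line differences had opposite signs at the 2 times, and this was not tested, because each line has 1 library per time. None of these 36 identifiers had differed 4-fold or more at 0 h, and 25 had at least 20 reads in the higher library at both times. At 0 h the median of reads in the higher library was 47 for the 364 and 53 for the 429. It was 181 over all 22919 identifiers, and shares at 36 h among identifiers of like depth were not compared.

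EPlOING identifiers, which lie outside the comparison above, passed the 2-fold rule at 0 h in 1254 of 2412 cases that reached 1 FPKM in one line or both, or 52%, with 561 higher and 693 lower in DC90. The median of their reads in the higher library was 2, and 29 of the 1254 had at least 20 reads.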

How the results depend on the processing

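Identifiers lower in DC90 outnumbered those higher under each alternative, and the named BGIOSGA040274, BGIOSGA013100, BGIOSGA037365 and BGIOSGA038872 kept their direction under each setting run on them. The balance was not the same at all levels of the higher line, however. From 1 to 5 FPKM 123 were higher and 180 lower, and from 5 to 20 FPKM 142 were higher and 159 lower. From 20 to 100 FPKM 76 were higher and 71 lower, and at 100 FPKM or more 23 were higher and 19 lower. The counts of higher and lower identifiers at 0 h, reported as 364 and 429, were 1708 and 2092 when 0.1 was added in place of 1 and all values were kept, 241 and 249 at a minimum of 5 FPKM, and 61 and 75 with a 4-fold rule. The share that was higher, 45.9%, was 39.7% with equal FPKM sums and 36.1% with the length trend removed. The share seen again in the same direction at 36 h, 28.9%, was 23.9% with 0.1 added and all values kept, 25.1% at a minimum of 5 FPKM and 63.2% with a 4-fold rule at both times. The SD of the log2 ratio was 0.57 in place of 0.32 with 0.1 added and over all identifiers above 0 in both lines. It was 0.47 over identifiers with at least 5 FPKM in either line, while the 0.32 required that level in both. The highest share in a bin was 12.7% with bins of 1000 numbers in place of 21.6%. With bins moved by 250 it was 17.2%, in numbers 38251 to 38750 with 5 of only 29 identifiers, while the numbers of the fullest bin fell into 35751 to 36250 at 10.8% and 36251 to 36750 at 12.6%. Of 2-fold to 4-fold differences, 18.9% were seen again at 36 h with equal FPKM sums; with median-of-ratios factors it was 18.4% and with the length trend removed 18.7%. Apart from the rule changes themselves, the cause was not tested. No paired analysis was possible because each line and time has 1 pooled library. Counting intervals do not cover the spread between plants or pools, which these libraries cannot show.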

Other observations

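Neighbours in the numbering were sometimes different together at 0 h. With the 22919 identifiers in order of their numbers, 590 of the 793 differing ones had no differing neighbour, 62 pairs stood next to each other, and 22 runs held 3 or more, with 79 identifiers in all. The longest run had 7 identifiers, between numbers 13095 and 13108, with 2 higher and 5 lower in DC90, and 6 of them differed in the same direction at 36 h. A run of 4, numbers 36117 to 36120, was lower in DC90 throughout, and all 4 were lower again at 36 h. In contrast, a run of 4 at numbers 21954 to 21957 was higher in DC90 throughout at 0 h, and 0 of the 4 differed in that direction at 36 h. Of the 62 pairs, 45 had both identifiers in the same direction, and of the 22 longer runs 10 had a single direction. In the runs of 3 or more, 42 of 79 identifiers or 53.2% were seen again in the same direction at 36 h, against 140 of 590 or 23.7% of those without a differing neighbour. Runs and the fullest bins overlap: numbers 13095 to 13108 and 36117 to 36120 lie in those bins, while 21954 to 21957 do not. The contrast between runs and lone identifiers is therefore not separate from that between bins. These counts were chosen after the data were seen and come with no test.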
